A study of Mus musculus with 8 samples.

Results

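The FoxO transcription factors Foxo1, Foxo3 and Foxo4 and 5 of their upstream regulators, the kinases Sgk1, Akt1, Akt2 and Pdpk1 and the deacetylase Sirt1, were followed in neurospheres that carried or lacked FoxO3. These are 8 of the 18193 genes that have a probe set of their own, and every probe set that the platform annotation gives to 1 of them was taken, 21 of the 45037 tested. Of the 21, 20 carry a single gene symbol and 1 is given to both Foxo3 and Gm38485. Foxo3, Foxo1 and Akt1 have 4 probe sets each, Akt2 has 3, Foxo4 and Pdpk1 have 2 each, and Sgk1 and Sirt1 have 1 each.

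Secondary neurospheres are floating clusters of dividing neural stem cells and their progeny, grown from the dissociated cells of an earlier generation of spheres. Here the cells came from mouse forebrain, were plated at 50000 cells/ml and were collected on day 6, in medium that held EGF and bFGF at 20 ng/ml each. The wild type group (FoxO3+/+) and the FoxO3 null group (FoxO3-/-) both came from mice of the FVB/N background, with 4 Affymetrix arrays each. Each group was divided equally over set 1 and set 2, 2 arrays to each, and an array is named here by its set and its number within the set (array 1_2 is the second of set 1). The age of the mice, the part of Foxo3 that the null allele lacks, what a set stands for, and whether the arrays came from separate animals or cultures are not given in the sources used here. The spread behind each p-value is that between these arrays alone and could be technical. Values are levels on the log2 scale, and a difference is FoxO3 null minus wild type with set as a term, given with its standard error (SE) or its 95% interval. A probe set passed at a limma p under 0.05 after Benjamini-Hochberg adjustment over all 45037 probe sets.

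FoxO proteins are forkhead transcription factors that switch on genes of cell cycle arrest, stress resistance and metabolism. Insulin and growth factors act through PI3K to bring Akt to the membrane, where Pdpk1 phosphorylates and activates it. Akt and the related kinase Sgk1 in turn phosphorylate FoxO proteins, which are then bound by 14-3-3 proteins and held in the cytoplasm. Sirt1 removes acetyl groups from FoxO proteins. In the adult brain FoxO factors are known for their part in keeping the pool of neural stem cells. Most of this control acts on the proteins, whereas the arrays measured RNA.

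Array medians lay between 6.27 and 6.31, while the upper quartiles of the arrays were 8.47 to 8.53 in set 1 and 8.56 to 8.61 in set 2. Over all probe sets, arrays of the same set correlated at 0.996 or more and arrays of different sets at 0.991 or less. All 7 measured markers of neural stem and progenitor cells lay above the median probe set, with mean levels between 6.49 and 14.55. Between genotypes 0 of the 7 passed, with 3 positive and 4 negative differences from -0.28 to 0.29. At an unadjusted limma p under 0.05 there were 4, against 12.7% of all probe sets. Of 14 markers of microglia, vessels and fibroblasts, 11 lay below that median, their levels spanned 4.78 to 7.20, and 0 passed between genotypes, with differences from -0.15 to 0.26. Of 5 measured genes of the oligodendrocyte lineage, 3 passed as lower in the FoxO3 null arrays, against 0.586% of all probe sets. They were Pdgfra (-0.67 ± 0.09, SE, limma adjusted p = 0.0108), Cspg4 (-0.56 ± 0.08, adjusted p = 0.0168) and Sox10 (-0.27 ± 0.05, adjusted p = 0.0473). In each of these 3 the genotypes overlapped over the 8 arrays. Mbp (0.44, adjusted p = 0.238) and Olig2 (-0.04, adjusted p = 0.867) did not pass. Y-linked Uty fell by 0.42 ± 0.08 (SE, limma adjusted p = 0.0423) and Xist rose by 0.44 ± 0.08 (adjusted p = 0.0453), while Eif2s3y (-0.64, adjusted p = 0.0578) and Kdm5d (-0.45, adjusted p = 0.191) did not pass. The sexes of the mice are not given in the sources used here, and these markers move with every genotype difference below. When the mean of the 3 Y-linked genes, which correlated with genotype at -0.861 across the arrays within sets, was added as a covariate, 0 probe sets passed and 2890 had an unadjusted p under 0.05. Since this covariate and genotype moved together, the fit can hardly tell them apart. A call lost in it does not assign a difference to either.

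Foxo3 RNA was lower in FoxO3 null neurospheres by 3 of its 4 probe sets, 1 of them shared with Gm38485. No other gene of the group passed the test. When the 2 arrays that share a set and a genotype were averaged first, 1 of the 3 passed (1434831_a_at), while 1434832_at (limma adjusted p = 0.0561) and 1444226_at (adjusted p = 0.111) did not. In the genotype comparison 0.586% of all probe sets passed as lower and 0.215% as higher. Among the 21 probe sets, 3 passed as lower, 2 given to Foxo3 alone and 1 to both Foxo3 and Gm38485. None passed as higher. None of the 17 probe sets of the other 7 genes passed, with a smallest limma adjusted p of 0.227. At an unadjusted p under 0.05 the 17 held 5 probe sets (3 higher and 2 lower in FoxO3 null), against 12.7% of all probe sets. Whole spheres were measured, so less RNA per cell and fewer cells of a type cannot be told apart.

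The brightest Foxo3 probe set, 1434831_a_at, read 10.24, 10.26, 10.32 and 10.00 on wild type arrays 1_1, 1_2, 2_1 and 2_2. On the FoxO3 null arrays in the same order it read 8.86, 9.08, 9.05 and 9.14. All 4 null arrays lay below all 4 wild type arrays, and the gap between the groups was wider than the spread within either. The mean was 10.20 ± 0.14 in wild type and 9.03 ± 0.12 in null arrays (SD, n = 4 each), and it fell by 1.17 (95% interval -1.36 to -0.98, limma adjusted p = 0.000649), the second smallest p among all probe sets. The signal that remained was 44.5% of wild type (95% interval 39.1% to 50.6%), 41.4% within set 1 and 47.8% within set 2. The deposited values are quantile-normalised and compress differences, and a probe set outside the deleted part of the gene says nothing about the deletion. A residual signal therefore does not measure how much Foxo3 message was left.

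Foxo3 probe set 1434832_at, designed from the same source sequence, read 9.38, 9.22, 9.40 and 9.27 in wild type. In FoxO3 null it read 7.96 and 8.0 in set 1 and 8.62 and 8.44 in set 2. Its groups did not overlap either, and both set 2 null arrays stood above both set 1 null arrays. It fell by 1.07 (95% interval -1.29 to -0.84, adjusted p = 0.0021), with differences of -1.32 within set 1 and -0.81 within set 2. That difference between sets was the largest among the 21 probe sets (0.51 ± 0.13, SE), and the interaction test did not call it (adjusted p = 0.339).

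The probe set shared by Gm38485 and Foxo3, 1444226_at, read 6.32, 6.40, 6.08 and 6.26 in wild type and 6.02, 5.91, 5.47 and 5.72 in FoxO3 null. It fell by 0.48 (95% interval -0.65 to -0.32, adjusted p = 0.0207), with non-overlapping groups. Which of its 2 genes the signal came from cannot be told apart. Its call was lost in each set alone (adjusted p = 0.232 in set 1 and 0.126 in set 2), and without any 1 of 5 arrays the adjusted p lay between 0.0522 and 0.0756. Those arrays were all 4 of wild type and FoxO3 null array 1_2.

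The remaining Foxo3 probe set, 1450236_at, was dim, brighter on average than 32.6% of all probe sets, and pointed the other way. It read 5.24, 5.49, 5.06 and 5.19 in wild type and 5.61, 5.49, 5.57 and 5.63 in FoxO3 null, where the 2 arrays at 5.49 differ only beyond the second decimal. The difference was 0.33 ± 0.08 (SE, 95% interval 0.15 to 0.51) and did not pass (adjusted p = 0.11). Without wild type array 1_2 it was 0.41 and passed (adjusted p = 0.0421). It was 0.18 within set 1 and 0.48 within set 2. Over the 8 arrays, 4 of the 21 probe sets had groups that did not overlap, against 3.11% of all probe sets. All 4 are given to Foxo3, 1 of them together with Gm38485.

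Both bright Foxo3 calls were also lost with the Y-linked mean as covariate, where 1434831_a_at differed by -1.16 (adjusted p = 0.0971) and 1434832_at by -1.39 (adjusted p = 0.0653). With that covariate 1444226_at differed by -0.37 (adjusted p = 0.713) and the dim 1450236_at by 0.04 (adjusted p = 0.993). The covariate moved with genotype (r = -0.861 within sets), so these lost calls do not show which of them the Foxo3 levels followed. With no set term 1434831_a_at still passed, while 1434832_at (adjusted p = 0.285) and 1444226_at (adjusted p = 0.848) did not.

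**Figure D1:**
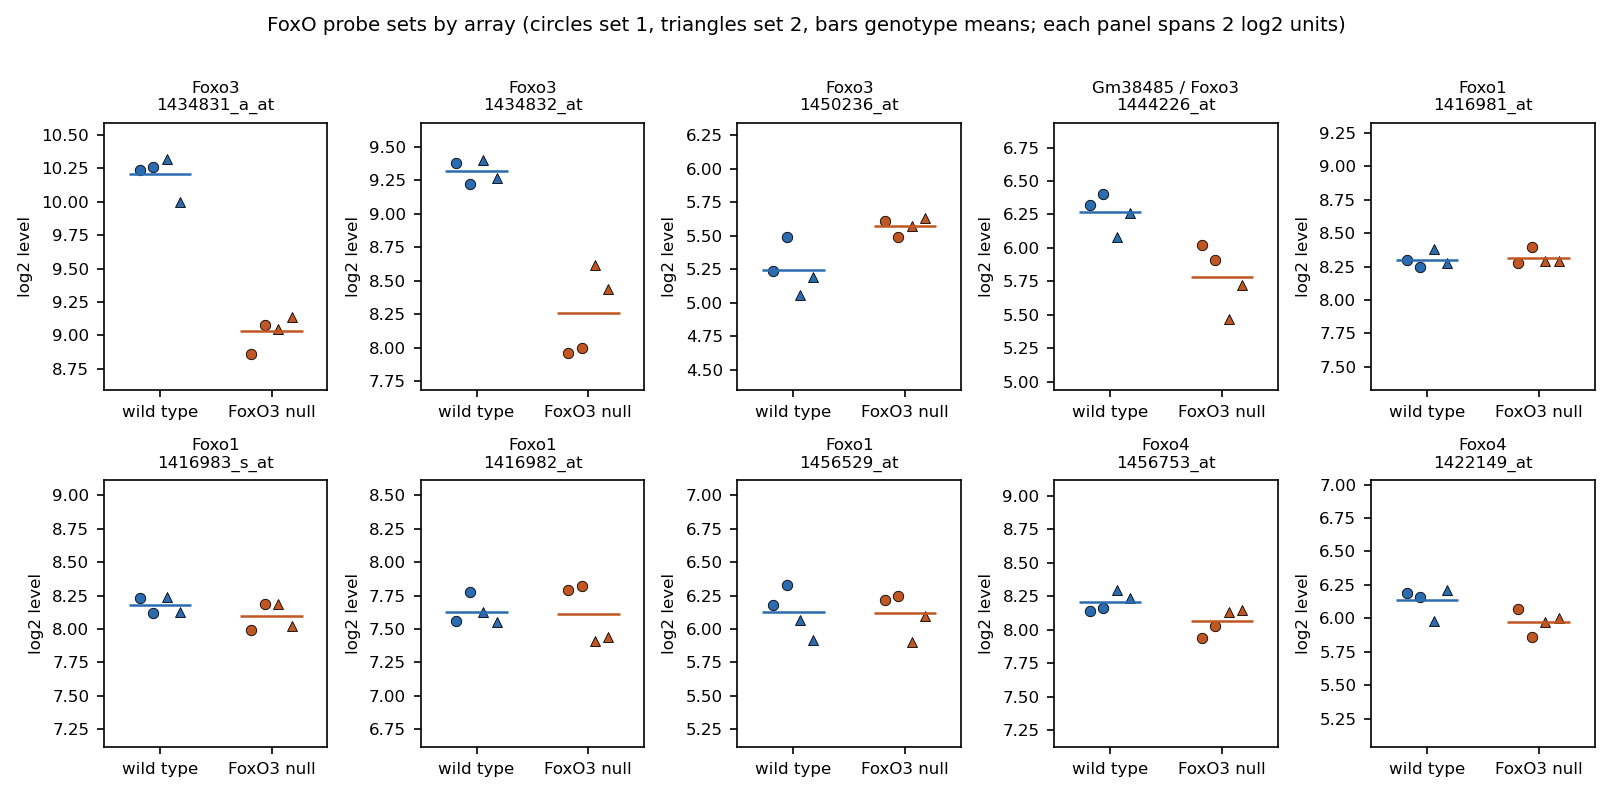
Log2 level of the 10 FoxO probe sets on each array, with circles for set 1, triangles for set 2 and bars for the mean of the 4 arrays of a genotype, each panel spanning the same range of log2 units. The 4 null arrays of Foxo3 1434831_a_at sit between 8.86 and 9.14, below wild type arrays between 10.00 and 10.32, whereas the genotypes overlap in each Foxo1 and Foxo4 panel.

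The rule asks whether a paralog rises when Foxo3 is lost. Neither Foxo1 nor Foxo4 was seen to do so at the RNA level: 0 of their 6 probe sets passed (limma), 2 had an unadjusted p under 0.05, and both of those, the Foxo4 probe sets, read lower in FoxO3 null. The highest upper bound of a 95% interval among the 6 was 0.15, which is a 1.11-fold rise. That bound holds for the fit with set as the only other term. With the Y-linked mean as covariate the difference was 0.15 in Foxo1 1416981_at (adjusted p = 0.902) and 0.17 in 1416982_at (adjusted p = 0.938). The bound is not the smallest rise that the test would call. Akt1 1416657_at differed by 0.16 ± 0.05 (SE) and did not pass (limma adjusted p = 0.227), so small rises could go undetected with these arrays.

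Foxo1, the paralog best known from insulin control of glucose production, did not differ detectably in its brightest probe set, 1416981_at. Wild type arrays read 8.30, 8.25, 8.38 and 8.28 and FoxO3 null arrays 8.28, 8.40, 8.29 and 8.29. The difference was 0.02 (95% interval -0.11 to 0.14, adjusted p = 0.948), 0.07 within set 1 and -0.04 within set 2.

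Foxo1 probe sets 1416983_s_at and 1416982_at were designed from the same source sequence as 1416981_at. Probe set 1416983_s_at read 8.23, 8.12, 8.24 and 8.13 in wild type and 7.99, 8.19, 8.19 and 8.02 in FoxO3 null, a difference of -0.08 (95% interval -0.23 to 0.06, adjusted p = 0.683). Its groups overlapped in both sets.

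Probe set 1416982_at differed in opposite directions in the sets. It read 7.56, 7.78, 7.63 and 7.55 in wild type and 7.79 and 7.82 (set 1) and 7.41 and 7.44 (set 2) in FoxO3 null. The null arrays were higher by 0.14 in set 1 and lower by 0.17 in set 2. The pooled difference was -0.01 (95% interval -0.18 to 0.15, adjusted p = 0.967). The difference between sets (-0.31 ± 0.12, SE) was not called by the interaction test (adjusted p = 0.614). The dimmer 1456529_at read 6.18, 6.33, 6.07 and 5.92 in wild type and 6.22, 6.25, 5.90 and 6.10 in FoxO3 null, a difference of -0.01 (95% interval -0.15 to 0.14, adjusted p = 0.985).

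Foxo4, encoded on the X chromosome, had the only paralog intervals that left out 0, both on the lower side. Probe set 1456753_at read 8.14, 8.16, 8.30 and 8.24 in wild type and 7.94, 8.03, 8.13 and 8.15 in FoxO3 null. The null arrays were lower within each set without overlap, by 0.16 in set 1 and 0.13 in set 2. Over all probe sets 5.25% were lower without overlap in both sets, and this was the 1 such case among the 17. The difference, -0.15 ± 0.05 (SE, 95% interval -0.26 to -0.03, 90.3% of wild type), did not pass (adjusted p = 0.258).

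Foxo4 probe set 1422149_at read 6.19, 6.16, 5.98 and 6.21 in wild type and 6.07, 5.86, 5.97 and 6.00 in FoxO3 null. Its difference was -0.16 (95% interval -0.32 to -0.01, adjusted p = 0.369), -0.21 within set 1 and -0.11 within set 2. The X-linked Xist and the Y-linked genes above moved with genotype on the same arrays, and their part in the Foxo4 difference was not tested beyond the covariate. With the Y-linked mean as covariate the difference was -0.12 in 1456753_at (adjusted p = 0.938) and -0.32 in 1422149_at (adjusted p = 0.724). Foxo6, the remaining member of the family, was not analysed here.

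The upstream promoter sequences of Foxo3 and Foxo1 are shown because these are the gene removed and the paralog with the most probe sets. RefSeq (build GRCm38.p6) gave promoter windows, from 250 bases before a gene's start to 50 after, for 7 of the 8 genes, 17 windows in all. The 100 bases just before each start read, 5′ to 3′ on the gene's strand:
Foxo3, chr10:42276696-42276795, minus strand: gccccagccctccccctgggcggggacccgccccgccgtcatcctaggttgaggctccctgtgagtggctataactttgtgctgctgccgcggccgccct
Foxo1, chr3:52268237-52268336, plus strand: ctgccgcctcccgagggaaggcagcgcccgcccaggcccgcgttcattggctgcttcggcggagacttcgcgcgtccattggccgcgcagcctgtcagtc
The Foxo3 window is 75.0% G and C and the Foxo1 window 61.3%. Each was searched on both strands for the forkhead motif GTAAACA, which reads TGTTTAC on the opposite strand, and neither holds it.

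Akt1 had the 1 match among the 17 windows (5.88%), against 1199 of 32851 promoter windows of all genes (3.65%). It lies on the opposite strand 161 bases before the start and is in capitals here:
Akt1, chr12:112675013-112675072, minus strand: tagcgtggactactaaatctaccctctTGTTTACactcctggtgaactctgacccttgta
A match of letters does not show that a factor binds there. Its values are given next.

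Of the 11 probe sets of the kinases and Sirt1, 10 had a positive and 1 a negative difference, and 0 passed (limma). Over all probe sets 54.7% of the differences were positive. These 11 are not independent, since several report the same gene, and 3 had an unadjusted p under 0.05, all 3 of Akt1. Across all 17 probe sets outside Foxo3 the differences ran from -0.16 to 0.16 with a median of 0.02, against a median of 0.01 over all probe sets. The highest upper bound of their 95% intervals was 0.31, a 1.24-fold rise. With the Y-linked mean as covariate Sirt1 differed by 0.27 (adjusted p = 0.895).

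Akt1 is the widely expressed form of Akt. Its brightest probe set, 1416657_at, read 10.48, 10.56, 10.76 and 10.68 in wild type and 10.63, 10.71, 10.91 and 10.87 in FoxO3 null. Within each set both null arrays lay above both wild type arrays, by 0.15 on average in set 1 and 0.17 in set 2. The difference was 0.16 ± 0.05 (SE, 1.12-fold, 95% interval 1.03 to 1.21) and did not pass (adjusted p = 0.227).

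Akt1 probe set 1425711_a_at read 9.18, 9.34, 9.54 and 9.44 in wild type and 9.43, 9.45, 9.68 and 9.56 in FoxO3 null, a difference of 0.16 (95% interval 0.02 to 0.29, adjusted p = 0.306). Probe set 1440950_at read 6.13, 6.18, 5.90 and 6.01 in wild type and 6.26, 6.42, 6.06 and 6.02 in FoxO3 null, a difference of 0.14 (95% interval 0.01 to 0.26, adjusted p = 0.368). Both were also higher without overlap within each set. These 3 Akt1 probe sets were the ones among the 17 that were higher without overlap in both sets, a pattern shown by 6.67% of all probe sets. The dimmest Akt1 probe set, 1442759_at, read 5.71, 5.84, 5.60 and 5.65 in wild type and 5.83, 5.83, 5.56 and 5.61 in FoxO3 null, a difference of 0.01 (95% interval -0.11 to 0.13, adjusted p = 0.973).

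Akt2, the form best known from insulin-stimulated glucose uptake, gave small positive differences in 3 probe sets. Probe set 1424480_s_at read 9.06, 9.24, 9.66 and 9.61 in wild type and 9.19, 9.36, 9.76 and 9.75 in FoxO3 null, a difference of 0.12 (95% interval -0.01 to 0.26, adjusted p = 0.453). Probe set 1421324_a_at differed by 0.06 (95% interval -0.13 to 0.26, adjusted p = 0.844), with levels between 8.32 and 8.70 over the 8 arrays. Probe set 1455703_at differed by 0.08 (95% interval -0.04 to 0.20, adjusted p = 0.602). In both of the latter the groups overlapped over the 8 arrays. Within set 1 and set 2, 1455703_at differed by 0.16 and 0.01, and 1424480_s_at by 0.13 and 0.12.

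Sgk1, a kinase whose transcription itself responds to hormones and stress, had 1 probe set, 1416041_at. It read 9.99, 9.94, 10.29 and 10.12 in wild type and 9.75, 9.84, 10.19 and 10.29 in FoxO3 null. The difference was -0.17 within set 1 and 0.04 within set 2, and the interaction did not pass (0.21 ± 0.12, SE, adjusted p = 0.763). The pooled difference was -0.07 (95% interval -0.22 to 0.08, adjusted p = 0.77). Its family members Sgk2 (-0.03, adjusted p = 0.923) and Sgk3 (0.08, adjusted p = 0.569) did not pass either.

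Pdpk1, the kinase that activates both Akt and Sgk1, did not differ detectably between genotypes and differed between sets. Probe set 1415729_at read 9.95, 9.98, 9.61 and 9.47 in wild type and 9.90, 9.92, 9.62 and 9.59 in FoxO3 null, a difference of 0.01 (95% interval -0.12 to 0.13, adjusted p = 0.975). Probe set 1416501_at read 9.32, 9.61, 8.62 and 8.75 in wild type and 9.32, 9.70, 8.85 and 8.86 in FoxO3 null, a difference of 0.11 (95% interval -0.10 to 0.31, adjusted p = 0.711). The differences within set 1 and set 2 were -0.05 and 0.07 in 1415729_at, and 0.05 and 0.17 in 1416501_at.

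Sirt1, the NAD-dependent deacetylase, had 1 probe set, 1418640_at, that read 8.56, 8.41, 8.10 and 7.89 in wild type and 8.40, 8.68, 8.05 and 8.30 in FoxO3 null. The groups overlapped in both sets. The difference was 0.12 (95% interval -0.08 to 0.31, adjusted p = 0.648), 0.05 within set 1 and 0.18 within set 2. Sirt1 and Sgk1 lie on chromosome 10, as does Foxo3, at 21 and 20.2 megabases from Foxo3.

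**Figure D2:**
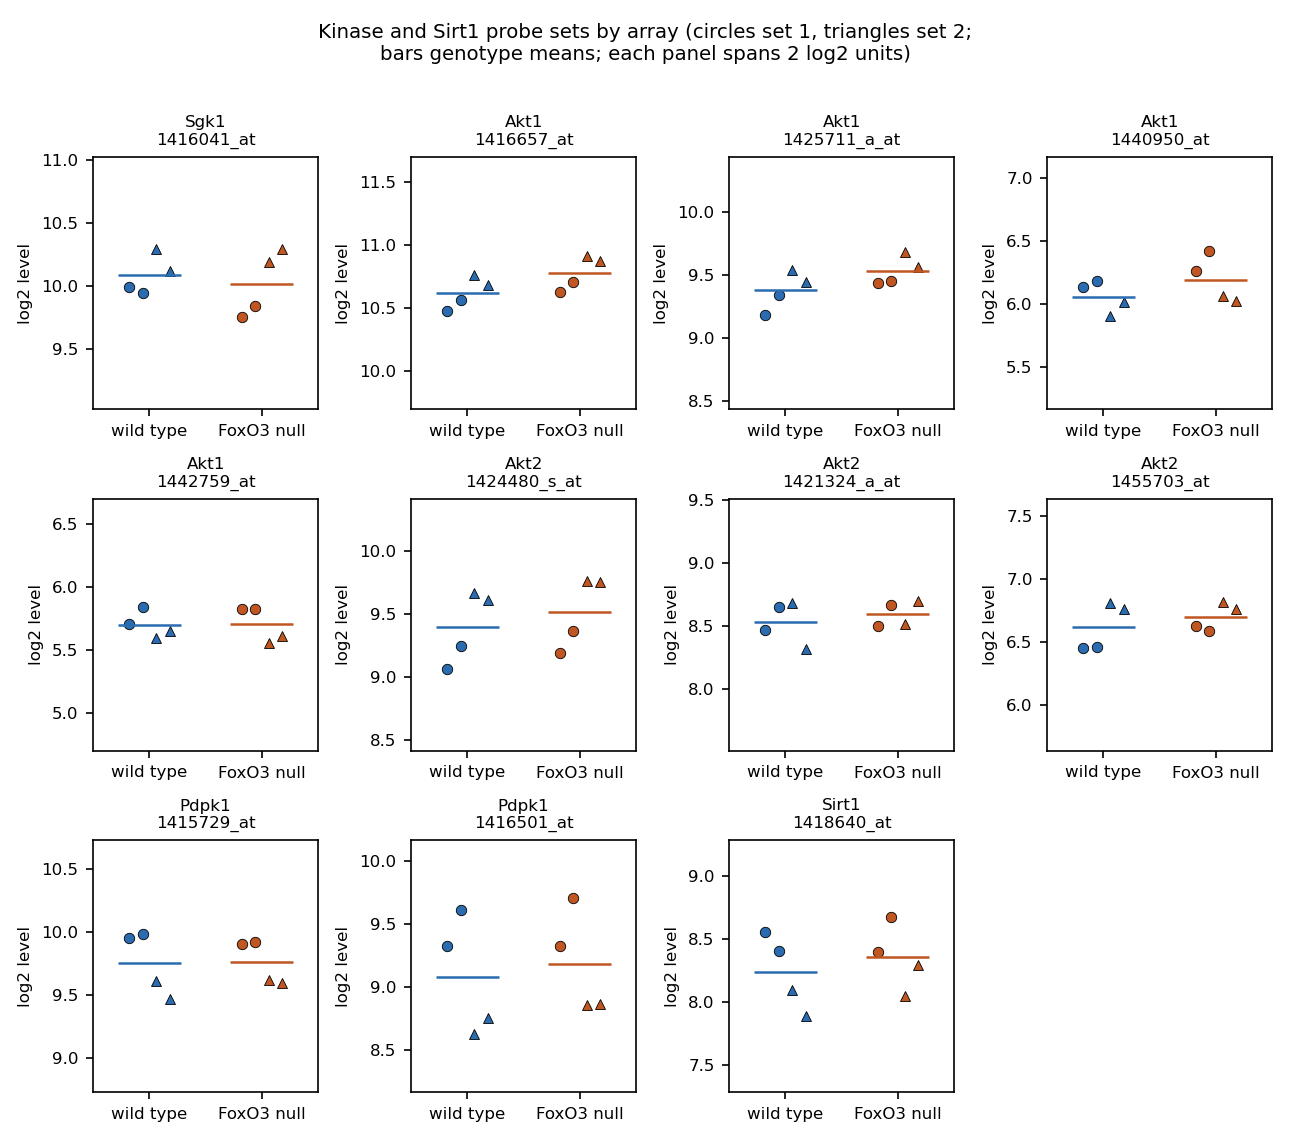
Log2 level of the 11 probe sets of Sgk1, Akt1, Akt2, Pdpk1 and Sirt1 on each array, with circles for set 1, triangles for set 2 and bars for genotype means, each panel spanning the same range of log2 units. Circles and triangles part more than the genotypes in Pdpk1 1416501_at, where set 1 arrays lie between 9.32 and 9.70 and set 2 arrays between 8.62 and 8.86.

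**Figure D3:**
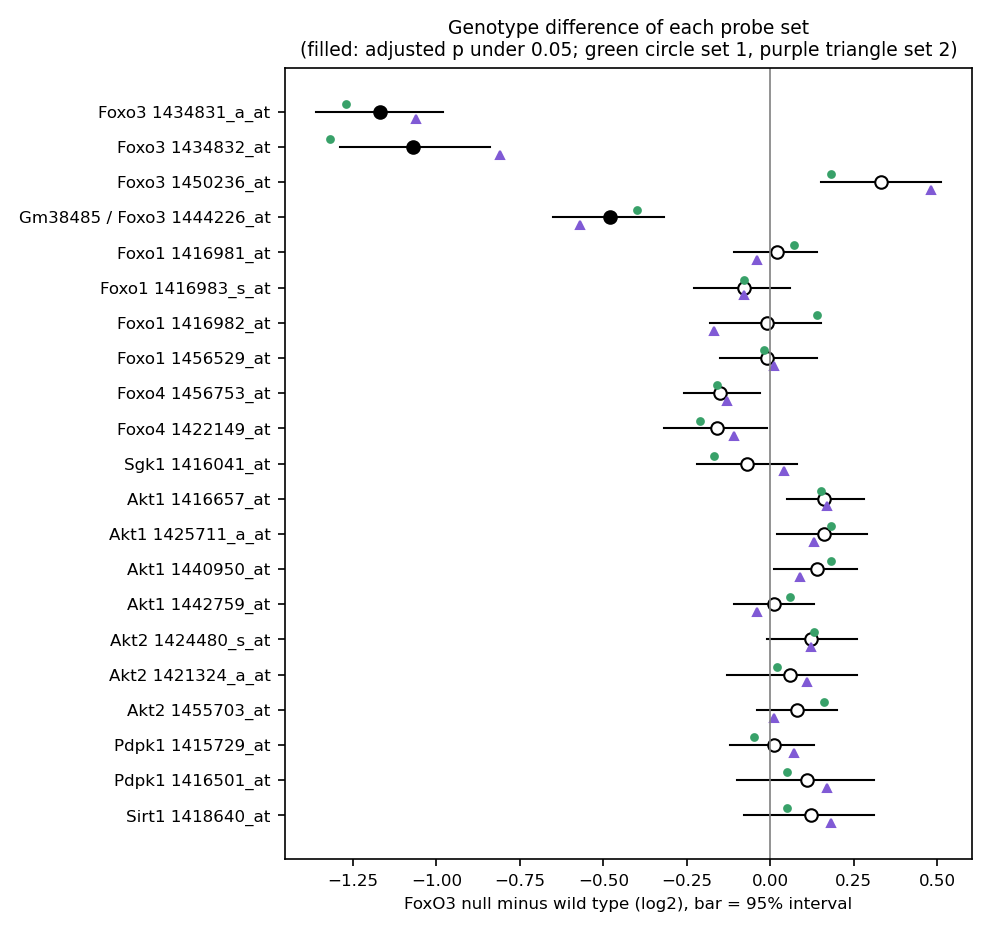
FoxO3 null minus wild type (log2) of the 21 probe sets, with the 95% interval as a bar, filled circles for an adjusted p under 0.05, and small green circles and purple triangles for the differences within set 1 and set 2. The 3 filled Foxo3 points, 1 of them shared with Gm38485, lie between -1.17 and -0.48. The 17 probe sets of other genes lie between -0.16 and 0.16.

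The sets differed in more of these probe sets than the genotypes did, on arrays whose upper quartiles also differed by set. The part of that shift in the set differences was not tested beyond a further quantile normalization. Set 2 differed from set 1 in 14 of the 21 probe sets, 6 higher and 8 lower in set 2, and in 12 of the 17 outside Foxo3. Over all probe sets 38.4% passed this comparison. The median size of the set difference was 0.23 over the 21 probe sets, and the median size of the genotype difference was 0.08 over the 17.

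Pdpk1 fell from set 1 to set 2 in both probe sets, by 0.72 in 1416501_at (1.65-fold, limma adjusted p = 0.000232) and by 0.36 in 1415729_at (adjusted p = 0.000699). Sirt1 fell by 0.43 (adjusted p = 0.0035). Sgk1 rose by 0.34 (adjusted p = 0.00291). Akt2 rose by 0.48 in 1424480_s_at (1.40-fold, adjusted p = 0.00022) and by 0.25 in 1455703_at (adjusted p = 0.00443), while 1421324_a_at did not pass (-0.02, adjusted p = 0.902).

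Akt1 probe sets disagreed between sets: 1416657_at rose by 0.21 (adjusted p = 0.00903) and 1425711_a_at by 0.20 (adjusted p = 0.0204), while the dimmer 1440950_at fell by 0.25 (adjusted p = 0.00675) and 1442759_at by 0.19 (adjusted p = 0.0171). Foxo1 was also split, since its brightest probe set did not pass (0.00, adjusted p = 0.967) and 1416982_at (-0.23, adjusted p = 0.0341) and 1456529_at (-0.25, adjusted p = 0.0136) were lower in set 2. Foxo4 did not pass in either probe set (0.14, adjusted p = 0.0546, in 1456753_at). Foxo3 1434831_a_at did not pass between sets (0.02, adjusted p = 0.882), and 1434832_at was higher in set 2 by 0.29 (adjusted p = 0.0435). After a further quantile normalization the set calls of Foxo3 1434832_at (0.22, adjusted p = 0.0981) and Akt1 1425711_a_at (0.15, adjusted p = 0.0571) were lost.

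The genotype difference itself did not differ detectably between sets. In the interaction test 0 of the 21 probe sets passed (limma, smallest adjusted p = 0.339), where 0.0688% of all probe sets passed. At an unadjusted p under 0.05 there were 2, Foxo3 1434832_at and Foxo1 1416982_at, against 7.54% of all probe sets.

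**Figure D4:**
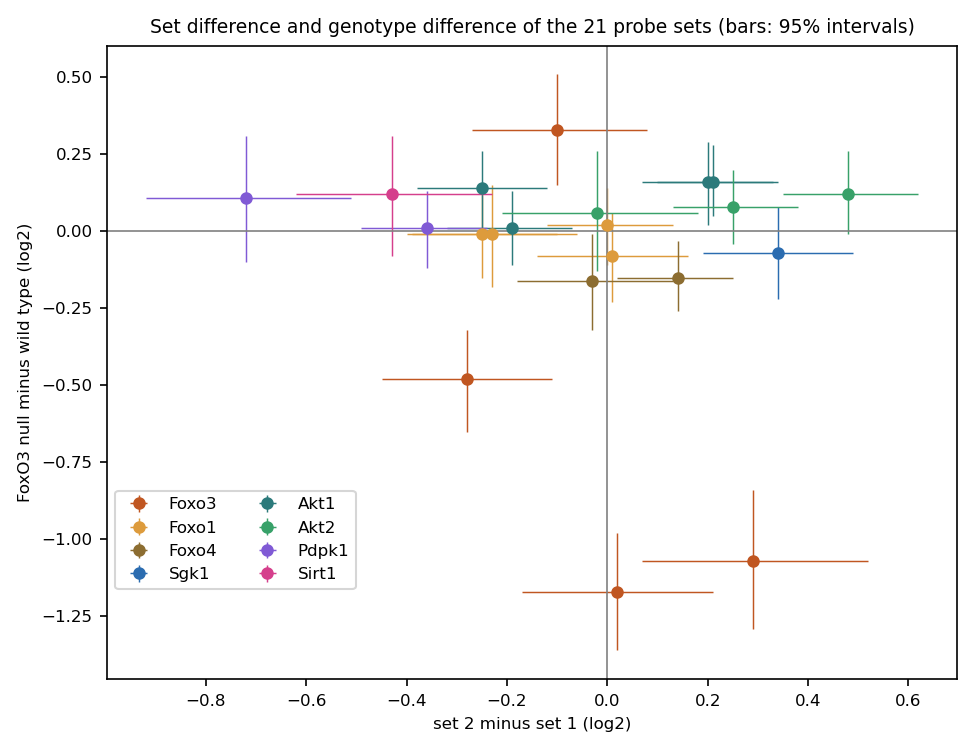
Set difference (set 2 minus set 1, log2, horizontal) against genotype difference (FoxO3 null minus wild type, log2, vertical) of the 21 probe sets, coloured by gene, with 95% intervals as bars. Points outside Foxo3 spread along the horizontal axis from -0.72 (Pdpk1) to 0.48 (Akt2) and stay between -0.16 and 0.16 on the vertical one.

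Lists of genes around the FoxO proteins, each gene represented by its brightest probe set of its own, place the members in their pathway. Without the 8 members, 80 of 86 listed regulators were measured, 5 were lower in FoxO3 null and 0 were higher. Over all probe sets 0.586% passed as lower and 0.215% as higher. Those shares include dim probe sets, whereas each listed gene is represented by its brightest. The median difference of the regulators was 0.01, the same as over all probe sets.

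Upstream of Akt, receptors and adaptors of insulin and growth factor signalling held 3 of the 5. All 13 were measured, 3 fell and 0 rose, with a median of -0.07. The IGF-1 receptor Igf1r fell by 0.42 ± 0.06 (SE, limma adjusted p = 0.0106), the FGF receptor Fgfr3 by 0.39 ± 0.06 (adjusted p = 0.0206) and the insulin receptor Insr by 0.35 ± 0.06 (adjusted p = 0.0287). In each of these 3 genes, named because they passed, all null arrays lay below all wild type arrays. Groups did not overlap, in either direction, in 3.11% of all probe sets.

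Among PI3K subunits and lipid phosphatases, 12 of 13 were measured and 1 fell. It was Pik3ip1, an inhibitor of PI3K, from 9.61 ± 0.08 in wild type to 8.93 ± 0.06 in FoxO3 null (SD, n = 4 each), a fall of 0.67 (adjusted p = 0.00194). In the list of the Akt and Sgk family, mTORC2 and Akt phosphatases, which holds the member kinases, 17 of 18 were measured and 0 passed, with differences between -0.07 and 0.16. There 2 had an unadjusted p under 0.05, Akt1 and the mTOR inhibitor Deptor (0.13, adjusted p = 0.309).

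Of 17 measured among 21 other kinases reported to act on FoxO proteins, 1 fell, the neural JNK gene Mapk10, by 0.36 ± 0.07 (SE, adjusted p = 0.0418). None passed in 9 genes of acetylation and deacetylation, where Sirt7 had the smallest p (0.17, adjusted p = 0.245), the 1 of the 9 under 0.05 unadjusted. None passed in 8 genes of ubiquitination and methylation, with 3 under 0.05 unadjusted and the smallest p for the ubiquitin ligase subunit Fbxo32 (-0.53 ± 0.12, SE, adjusted p = 0.0889). In 9 genes of 14-3-3 proteins and nuclear transport 0 passed and 0 had an unadjusted p under 0.05, with the smallest p for Ywhaz (-0.09, adjusted p = 0.598).

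Downstream, 6 of 39 genes reported as FoxO targets fell and 0 rose in FoxO3 null, with a median of -0.13 and 33 negative differences. Over all probe sets, dim ones included, 0.586% passed as lower and 45.3% of the differences were negative. With only the brightest probe set of each of the 18193 genes tested, 213 passed as lower. The target list contains Pik3ip1, Igf1r and Insr, described above, so these 3 are counted in both places. The stress-induced mTOR inhibitor Ddit4 fell by 0.90 ± 0.12 (SE, adjusted p = 0.0109), and the cyclin Ccng2 and the autophagy gene Gabarapl1 also passed. Promoter windows of 34 of the 39 target genes were found. Of these 40 windows, 5 held GTAAACA or its opposite strand (12.5%), against 3.65% of the promoter windows of all genes. They were those of Bcl2l11, Bbc3, Txnip, Sesn1 and Trim63. None of these 5 genes passed, Txnip coming closest (-0.59 ± 0.12, SE, adjusted p = 0.0503).

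**Figure D5:**
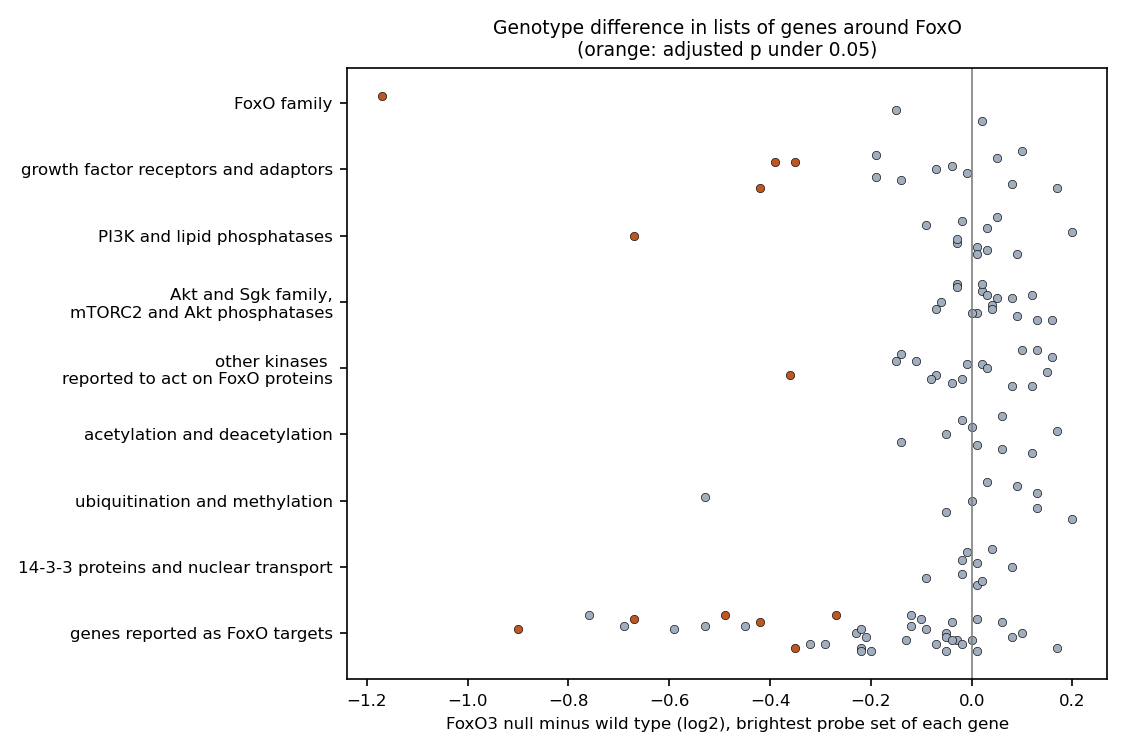
FoxO3 null minus wild type (log2) of the brightest probe set of each measured gene in 9 lists around the FoxO proteins, orange for an adjusted p under 0.05. Each gene has 1 point in each list that holds it, so Pik3ip1, Igf1r and Insr, among others, are drawn in more than 1 list. Points of the Akt and Sgk list stay between -0.07 and 0.16 with 0 orange, while the receptors hold 3 and the FoxO targets 6 orange points, all to the left of 0.

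The genes whose level followed each paralog most closely were found among 19978 probe sets by Pearson's r over the 8 arrays, after each set's mean was subtracted. Such values are high for some gene by the number searched, and the arrays share their genotype groups. For Foxo3 (1434831_a_at) they were Scrg1 (r = 0.993), Ctnna2 (0.992) and Wipi1 (0.991), which fell by 0.67, 0.42 and 0.32 between genotypes. For Foxo1 (1416981_at) they were Arid4a (0.979), Csf2ra (0.967) and Lbh (0.961), with differences of 0.01, 0.02 and -0.02. For Foxo4 (1456753_at) they were Dcaf8 (0.991), Ankrd24 (0.989) and Jdp2 (0.988), with differences of -0.09, -0.28 and -0.17, of which 0 passed.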

How the data were processed

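Each of 8 neurosphere RNA samples went on an Affymetrix Mouse430_2 array with biotin label. The deposited values are log2 levels from RMA, run by the authors per the submitters' processing notes. RMA subtracts background, quantile-normalises and summarises probes, so a shift shared by all genes is removed. Its version, and whether all arrays were processed together, are not given in the sources used here.

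The 64 control probe sets were left out of 45101. The platform annotation gives 34945 of the rest 1 symbol, 932 several and 9160 none. The genotype test used limma 3.58.1 under R 4.3.3 (lmFit, eBayes, two-sided, Benjamini-Hochberg over 45037), set as a term. The interaction was fitted on the same table. The genotype fit was tested on simulated data.

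The members, lists and tests were chosen with earlier results of these data known. Named are all member probe sets, Sgk2 and Sgk3, of each list up to 3 passing genes by smallest p or else the 1 with the smallest p, and the 3 genes most like each paralog. Named after their values were seen were Deptor, Ccng2, Gabarapl1, the oligodendrocyte and sex-linked genes, and the targets with a motif match. The Y-linked mean rests on Eif2s3y, Kdm5d and Uty. Alternatives covered the set term, pairing, each set alone, repeated arrays, normalization, dim probe sets, the variance model, 1 probe set per gene, the Y-linked mean and each array left out.

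No pairing of the arrays by their number within a set was seen, and whether same-numbered arrays share a culture or animal is not given. Deviations of same-numbered arrays from their set and genotype means correlated at 0.0739 in set 1 and -0.0582 in set 2.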

Additional observations from a re-analysis of the deposited data

Results flagged for a closer look

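In 1 of 42 groups of 4 arrays, 1 array stood far from the others, where chance gives about 1 in 20 groups. It was FoxO3 null array 1_2 in Foxo1 probe set 1416981_at, at 8.40 against 8.28 to 8.29 on the other null arrays, so that its gap to the nearest was 0.889 of the group's range. Without it the genotype difference was -0.02 in place of 0.02 on the log2 scale (limma adjusted p = 0.943), and the probe set did not pass either way.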

How the results depend on the processing

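The count of probe sets that passed the genotype comparison (361) moved to 3 with no set term, 138 with the replicate block, 42 in set 1 alone, 146 in set 2 alone, 39 on means of the arrays of a set and genotype, 1354 with those arrays as a random block, 825 with a variance trend and 0 with the Y-linked mean as covariate. Leaving out 1 array gave 83 (without wild type array 1_1) to 271. The interaction count (31) was 150 with a variance trend and 4 to 29 with 1 array left out. The set count (17281) was 11287 above the median level, where fewer probe sets are tested. For the random block, the correlation estimated between arrays of a set and genotype was -0.264. A negative value narrows the SE of the genotype difference, so this block is not a stricter test. The cause of the other changes was not tested. In the 21 alternatives 0 calls were made outside Foxo3, with a smallest adjusted p of 0.0692 (Akt1 1416657_at, random block). Foxo3 1434831_a_at passed in 20 of 21 alternatives, 1434832_at in 16 of the 19 that held it, 1444226_at in 8 of 18 and 1450236_at in 2 of 18. The replicate block changed no call among the 21 probe sets (3 passed).

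Signs turned only where differences were near 0 and had not passed. Without 1 array, differences ran from -0.03 to 0.03 in Pdpk1 1415729_at, -0.02 to 0.05 in Foxo1 1416981_at, -0.09 to 0.03 in Foxo1 1416982_at, -0.05 to 0.03 in Foxo1 1456529_at, -0.02 to 0.13 in Akt2 1421324_a_at and -0.03 to 0.03 in Akt1 1442759_at. In set 1 alone Pdpk1 1415729_at was -0.05 and Foxo1 1416982_at 0.14. In set 2 alone Sgk1 was 0.04, Foxo1 1416981_at -0.04, Akt1 1442759_at -0.04 and Foxo1 1456529_at 0.0057. With the Y-linked mean, Pdpk1 1415729_at was -0.05, Foxo1 1416982_at 0.17 and Foxo1 1456529_at 0.04. Listed genes other than the 8 were part of the alternative fits, but their values there are not given here. With the Y-linked mean as covariate 0 probe sets passed, so their calls were lost in that fit. Set calls were lost without 1 array in Foxo3 1434832_at, Foxo1 1416982_at, Akt1 1425711_a_at and Akt1 1442759_at. With 8 arrays small differences stay undetected, and dim probe sets are compressed.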
